A study of Mus musculus with 12 samples.

Results

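The cadherins and the non-clustered protocadherins were examined in neurons made from mouse embryonic stem cells in which PRMT1 or PRMT8 had been knocked down. Every gene with a symbol made of Cdh or Pcdh and a number (Pcdh11x included) was taken, and the clustered Pcdha, Pcdhb and Pcdhg genes were left out. This gave 35 of the 19938 genes with a symbol of their own on the array. Of the 35, 30 were bright enough to be tested, among 14953 tested genes in all.

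All cultures came from D3, a line of mouse embryonic stem cells, and were aggregated into embryoid bodies without LIF and collected as neurons at day 16. The groups were D3 cells with PRMT1 knocked down (siPRMT1), D3 cells with PRMT8 knocked down (siPRMT8), D3 cells given a scrambled sequence (siSCR), and unmodified D3 cells (D3). Each group was 1 line with 3 biological replicates, so a line and its knockdown cannot be told apart. The labels do not say whether replicates were separate differentiations, and p-values therefore measure the spread between these 12 cultures. PRMT1 and PRMT8 are enzymes that place methyl groups on arginines of proteins, and PRMT8 is found mainly in brain.

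Cadherins are calcium-dependent adhesion proteins of the cell surface. In classical cadherins the outer part binds a cadherin of the neighbouring cell, and the tail binds p120 catenin and beta-catenin, which links through alpha-catenin to actin. Type I members include E-cadherin and N-cadherin, whereas many type II members are expressed in distinct sets of neurons and take part in sorting and synapse choice. Delta protocadherins adhere weakly, have other tails, and act in axon growth and circuit formation, and the tails of several delta2 members recruit the actin-regulating WAVE complex.

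Values are deposited log2 intensities, so a difference of 1 is a 2-fold change, and they compare arrays for the same gene but not different genes with each other. Targeted genes were checked first. Prmt1 fell by 1.06 in siPRMT1 against siSCR (adjusted p = 0.000115, limma) and Prmt8 fell by 0.61 in siPRMT8 against siSCR (adjusted p = 0.0171). Prmt8 also fell in siPRMT1 against D3, by 0.75 (adjusted p = 0.00488). The controls of these 2 Prmt8 differences are not the same, so their sizes do not compare the knockdowns. On the first principal component (61.4% of the variance) the 6 knockdown arrays lay at 13.6 to 25.7, and the D3 arrays at -22.7 to -21.6. Of the siSCR arrays, replicates 2 and 3 were at -26.2 and -22.2, but replicate 1 was at 0.105, between the controls and the knockdowns. Comparisons with siSCR are therefore also given without that array, and D3 serves as a control whose mean does not contain it. That array was singled out from these same data. Leaving it out favoured falls in genes where it read low, so falls found without it are a description and no test. All groups share 1 estimate of the spread, so that array still enters the SE of each comparison with D3.

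Cadherin genes that changed were nearly all lower in the knockdown cultures. In siPRMT1 against siSCR 11 of the 30 tested members fell and 0 rose, where 18.7% of all tested genes changed, 11.6% of all genes downward and 7.18% upward (adjusted p under 0.05, limma with Benjamini-Hochberg over all tested genes). In siPRMT8 against siSCR 9 fell and 1 rose, where 23.8% of all genes changed, 13.2% downward and 10.7% upward. Against D3, 14 fell and 0 rose in siPRMT1 (26.4% of all genes changed, 14.7% downward and 11.7% upward), and 13 fell and 0 rose in siPRMT8 (27.7% of all genes, 15.2% downward and 12.5% upward). The share of members that fell was thus 36.7% and 30% against siSCR and 46.7% and 43.3% against D3, for siPRMT1 and for siPRMT8 in that order. Median differences of the 30 members were -0.31 and -0.17 against siSCR and -0.44 and -0.34 against D3, whereas the medians of all tested genes lay between 0.01 and 0.05. Cdh12 reached the brightness limit only through its control arrays and had to differ. Without it, 10 of 29 members fell in siPRMT1 and 9 in siPRMT8 against siSCR, and 13 and 12 against D3. The 4 comparisons share arrays and do not count as separate evidence.

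**Figure D1:**
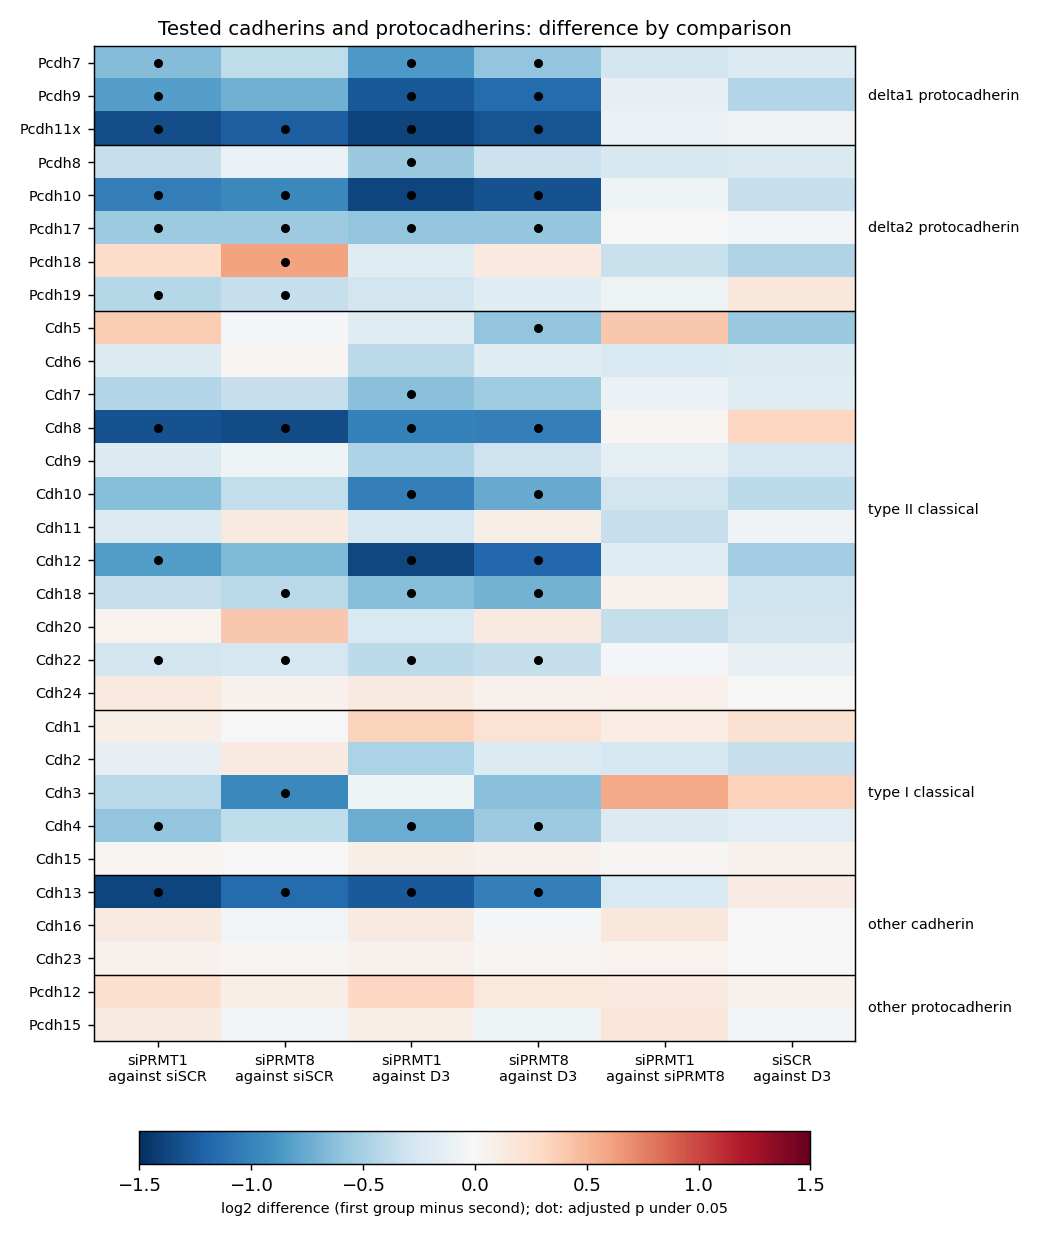
Log2 difference of each of the 30 tested members (rows, grouped by class) in the 6 comparisons (columns, first group minus second). Blue is lower and red is higher in the first group, and a dot marks an adjusted p under 0.05. Dots lie on blue cells except for Pcdh18 in siPRMT8 against siSCR, and the last 2 columns hold none.

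Cdh8, Cdh13, Cdh22, Pcdh10, Pcdh11x and Pcdh17 fell in all 4 comparisons of a knockdown with a control, 6 members in all. Cdh4, Cdh18, Pcdh7, Pcdh9 and, described without its test, Cdh12 were lower in 3 of them, Cdh10 and Pcdh19 in 2, and Cdh3, Cdh5, Cdh7 and Pcdh8 in 1. The other 13 fell in none: Cdh1, Cdh2, Cdh6, Cdh9, Cdh11, Cdh15, Cdh16, Cdh20, Cdh23, Cdh24, Pcdh12, Pcdh15 and Pcdh18. How many of all genes fell in several comparisons at once was not counted. Because the comparisons share arrays, these numbers list the members and are not a result about them as a set. In siPRMT1 against D3 the arrays of the 2 groups did not overlap in 19 members on the lower side and in 1 on the higher side, against 20.6% and 23.6% of all genes. The same counts in siPRMT8 against D3 were 18 and 3, against 25.3% and 27.2% of all genes. Cdh12 is among the 19 and the 18, although a difference was built into its selection.

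siSCR replicate 1 carried low cadherin values too. It lay below both other siSCR arrays in 22 of the 30 members (73.3%), and in 31.8% of all tested genes. The mean over the 30 members was 7.0 to 7.09 in the siPRMT1 arrays and 7.08 to 7.15 in the siPRMT8 arrays, against 7.10, 7.58 and 7.56 in siSCR replicates 1, 2 and 3 and 7.52 to 7.57 in the D3 arrays. A list of 15 pan-neuronal markers moved the same way, at 8.33 to 8.62 in siPRMT1 and 8.52 to 8.72 in siPRMT8, against 8.57, 9.63 and 9.59 in siSCR and 9.61 to 9.72 in D3. Of these 15 markers 11 fell and 0 rose in siPRMT1 against siSCR, 9 fell and 1 rose in siPRMT8 against siSCR, and 13 fell and 0 rose in each knockdown against D3. The part of the neuronal markers in the cadherin result was not tested, and in whole cultures fewer neurons and less RNA per neuron cannot be told apart. Without siSCR replicate 1, 16 members fell and 0 rose in siPRMT1 against siSCR, where 25.2% of all genes changed, and 14 fell and 1 rose in siPRMT8 against siSCR, where 27.5% changed. Leaving out this array, the low one in 22 of the 30 members, favoured such falls, so these counts are a description and no test. Without siSCR replicate 2 the counts were 2 lower in siPRMT1 (8.81% of all genes), and 2 lower and 1 higher in siPRMT8 (13.3% of all genes). Without siSCR replicate 3 they were 2 lower and 1 higher in siPRMT1 (8.81% of all genes), and 1 lower and 1 higher in siPRMT8 (12.4% of all genes). With siSCR replicate 1 as 1 of only 2 scrambled arrays, the members called were thus 6.67% to 10% of the 30, close to or below the share of all genes. Of the 11 calls in siPRMT1 against siSCR, those of Cdh13 and Pcdh10 passed whichever 1 of the 6 arrays compared was left out, and of the 10 in siPRMT8 against siSCR those of Cdh13 and Pcdh18 did. Against D3, 10 of 14 calls in siPRMT1 and 7 of 13 in siPRMT8, Cdh12 among both, passed whichever 1 of the 6 arrays compared was left out. In these fits siSCR replicate 1 was kept, and it entered the shared estimate of the spread.

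Of the 3 tested delta1 protocadherins all fell in siPRMT1, by 0.65 to 1.33 against siSCR and by 0.86 to 1.39 against D3. Of all genes 11.6% and 14.7% fell in these comparisons. In siPRMT8, 1 of the 3 fell against siSCR (13.2% of all genes) and 3 fell against D3 (15.2%). The tested members were Pcdh7, Pcdh9 and Pcdh11x, and the fourth, Pcdh1, was too dim to test. Pcdh11x, the X-linked brain protocadherin of this class, read 7.10, 6.58 and 7.14 in siPRMT1 cultures and 6.90, 7.09 and 7.12 in siPRMT8 cultures, against 7.15, 8.98 and 8.69 in siSCR and 8.20, 8.47 and 8.31 in D3. All 6 knockdown arrays lay below all 6 control arrays, but siSCR replicate 1 exceeded the highest knockdown array only slightly. Its fall was 1.33 in siPRMT1 (log2 -1.33, SE 0.356, adjusted p = 0.0239, limma) and 1.24 in siPRMT8 against siSCR (log2 -1.24, SE 0.356, adjusted p = 0.027). Against D3 it was -1.39 in siPRMT1 (adjusted p = 0.0144) and -1.29 in siPRMT8 (adjusted p = 0.0191). No member had a wider gap within siSCR: replicate 1 lay 1.68 below the mean of the other siSCR arrays (difference -1.68).

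Pcdh9, expressed broadly in developing brain, read 7.95, 7.78 and 8.04 in siPRMT1 cultures and 7.88, 8.21 and 8.01 in siPRMT8 cultures, against 8.0, 9.28 and 8.98 in siSCR and 9.08, 9.33 and 9.16 in D3. The knockdown arrays stood clear of D3, whereas siSCR replicate 1 lay among them. Pcdh9 fell by 0.83 in siPRMT1 against siSCR (SE 0.246, adjusted p = 0.0354) and lay at -0.72 in siPRMT8, which missed the threshold (adjusted p = 0.0534). Without siSCR replicate 1, the low siSCR array in this gene, the difference there was -1.09, given as a description and no test. Relative to D3 the falls were 1.27 for siPRMT1 (log2 -1.27, SE 0.246, adjusted p = 0.00325) and 1.15 for siPRMT8 (log2 -1.15, adjusted p = 0.00524), and both calls passed whichever 1 of the 6 arrays compared was left out. The other probe set of Pcdh9 gave -0.87 and -0.73 against siSCR and -1.34 and -1.19 against D3 for siPRMT1 and siPRMT8.

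Pcdh7, known from Xenopus as NF-protocadherin of retinal axons, read 7.77, 7.59 and 7.82 in siPRMT1 cultures and 7.96, 8.01 and 8.02 in siPRMT8 cultures, against 7.78, 8.73 and 8.63 in siSCR and 8.48, 8.69 and 8.58 in D3. Here too siSCR replicate 1 was as low as the siPRMT1 arrays, and below all siPRMT8 arrays. The difference was -0.65 in siPRMT1 (SE 0.191, adjusted p = 0.0344) and -0.38 in siPRMT8 against siSCR (adjusted p = 0.17). It was -0.86 in siPRMT1 (adjusted p = 0.00704) and -0.59 in siPRMT8 against D3 (adjusted p = 0.0398). The siPRMT8 call against D3 was lost when any 1 of the 6 arrays was left out (adjusted p = 0.0714 to 0.117). Without siSCR replicate 1 the difference of siPRMT8 from siSCR was -0.68, given as a description and no test. The calls of Pcdh9 and Pcdh7 in siPRMT1 against siSCR were each lost when any 1 of 5 arrays was left out, siSCR replicate 1 being the exception, with adjusted p up to 0.14 and 0.141. Pcdh11x lost its call in siPRMT1 against D3 without D3 replicate 2 (adjusted p = 0.0513), in siPRMT8 against D3 without any 1 of 4 arrays (up to 0.0632), in siPRMT1 against siSCR without any 1 of 3 and in siPRMT8 against siSCR without any 1 of 5 (up to 0.103 and 0.108).

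**Figure D2:**
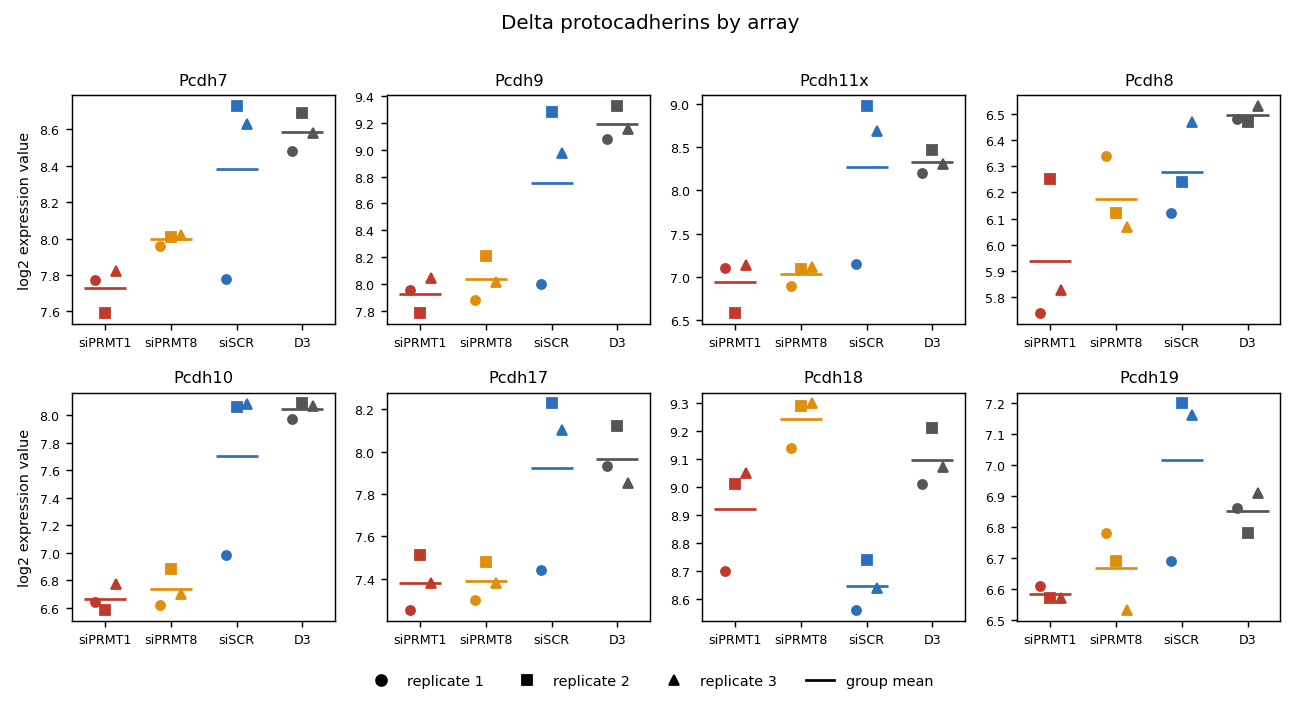
Log2 expression value of the 8 tested delta protocadherins (vertical axis, its range differs between panels) in the 3 arrays of each group, with symbols for the replicate number and a line at the group mean. In Pcdh7, Pcdh9, Pcdh11x, Pcdh10 and Pcdh17 siSCR replicate 1 lies well below the other siSCR arrays, whereas in Pcdh18 the siSCR arrays are the lowest group.

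Of the 5 delta2 protocadherins Pcdh10, Pcdh17 and Pcdh19 fell against siSCR in both knockdowns, Pcdh8 fell only against D3 in siPRMT1, and Pcdh18 rose in siPRMT8 against siSCR. Pcdh10, which recruits the WAVE complex and is needed for growth of striatal axons in mice, read 6.64, 6.58 and 6.77 in siPRMT1 cultures and 6.62, 6.88 and 6.70 in siPRMT8 cultures, against 6.98, 8.06 and 8.08 in siSCR and 7.97, 8.09 and 8.07 in D3. Every knockdown array lay below every control array. The fall was 1.04 in siPRMT1 (log2 -1.04, SE 0.226, adjusted p = 0.0097, limma) and 0.97 in siPRMT8 against siSCR (log2 -0.97, SE 0.226, adjusted p = 0.011). Against D3 it was -1.38 in siPRMT1 (adjusted p = 0.00136) and -1.31 in siPRMT8 (adjusted p = 0.00182). The call in siPRMT8 against siSCR was lost without siSCR replicate 3 (adjusted p = 0.052).

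Pcdh18 lies next to Pcdh10 on chromosome 3 in the RefSeq annotation, with 1 protein-coding gene between them, and its values went another way. It read 8.70, 9.01 and 9.05 in siPRMT1 cultures and 9.14, 9.29 and 9.30 in siPRMT8 cultures, against 8.56, 8.74 and 8.64 in siSCR and 9.01, 9.21 and 9.07 in D3. The siSCR arrays were the low group, replicate 1 included, and siPRMT8 overlapped with D3. Pcdh18 rose by 0.60 in siPRMT8 against siSCR (SE 0.0977, adjusted p = 0.00223), a call that passed whichever 1 of the 6 arrays compared was left out. It lay at 0.27 in siPRMT1 against siSCR (adjusted p = 0.0771), at -0.18 in siPRMT1 against D3 (adjusted p = 0.194) and at 0.15 in siPRMT8 against D3 (adjusted p = 0.288). The direct difference of siSCR from D3 was -0.45 (SE 0.0977, adjusted p = 0.124).

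The promoter windows of this adjacent pair are printed because the 2 genes differed in opposite directions in siPRMT8 against siSCR, and that of Cdh8 because it had the largest fall of a cadherin with a window in that comparison. Each window runs from 250 bases before to 50 bases after the annotated start, 5′ to 3′ on the strand of the gene, and comes from RefSeq (GRCm38.p6). Pcdh10 is at chr3:45378148-45378447 (plus strand), Pcdh18 at chr3:49757267-49757566 (minus strand) and Cdh8 at chr8:99416422-99416721 (minus strand). Capitals mark CCAAT or its complement ATTGG, a motif chosen after the sequences had been read.
Pcdh10: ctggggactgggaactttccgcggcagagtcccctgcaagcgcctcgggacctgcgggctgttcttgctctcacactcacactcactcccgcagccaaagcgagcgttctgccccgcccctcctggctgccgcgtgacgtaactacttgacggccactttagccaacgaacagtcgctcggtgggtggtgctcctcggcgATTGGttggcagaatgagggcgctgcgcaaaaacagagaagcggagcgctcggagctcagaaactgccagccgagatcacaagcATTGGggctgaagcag
Pcdh18: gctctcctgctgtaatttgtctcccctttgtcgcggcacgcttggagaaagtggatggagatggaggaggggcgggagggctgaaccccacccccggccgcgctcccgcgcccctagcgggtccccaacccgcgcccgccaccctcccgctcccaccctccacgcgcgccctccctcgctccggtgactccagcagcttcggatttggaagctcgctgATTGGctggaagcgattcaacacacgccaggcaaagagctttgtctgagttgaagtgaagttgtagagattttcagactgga
Cdh8: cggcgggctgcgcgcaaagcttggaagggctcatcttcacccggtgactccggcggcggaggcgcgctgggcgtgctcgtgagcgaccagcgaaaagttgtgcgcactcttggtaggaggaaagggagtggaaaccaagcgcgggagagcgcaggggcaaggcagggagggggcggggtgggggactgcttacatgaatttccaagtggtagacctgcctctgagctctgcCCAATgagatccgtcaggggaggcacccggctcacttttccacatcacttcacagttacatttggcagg
The Pcdh10 window held 2 matches, which begin at bases 201 and 285, and the Pcdh18 and Cdh8 windows held 1 each, at bases 219 and 232. Windows were found for 22 of the 35 members, 25 windows in all because Cdh7 had 3 and Pcdh9 had 2, and 17 of the 25 (68.0%) held the motif on either strand, against 37.4% of all 32851 windows of this length. These member windows were also richer in G and C, with a median of 60.3% against 52.7%, and in CpG, with a median of 14 against 7. The E-box CACCTG (or its complement CAGGTG), the sequence that Snail and Zeb repressors of E-cadherin bind, was in 5 of the 25 windows (20.0%), all of Cdh7, Pcdh7 and Pcdh15, against 20.2% of all windows. These motifs cannot overlap each other by their letters, and a match describes letters only. Cdh1, Cdh2, Cdh3, Cdh4 and Cdh13 were among the members without a window, so the E-cadherin promoter was not searched for either motif.

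Pcdh17, a protocadherin of corticobasal circuits in mice, read 7.25, 7.51 and 7.38 in siPRMT1 cultures and 7.30, 7.48 and 7.38 in siPRMT8 cultures, against 7.44, 8.23 and 8.10 in siSCR and 7.93, 8.12 and 7.85 in D3. Both knockdowns overlapped with siSCR through its replicate 1 and stood clear of D3. Pcdh17 fell by 0.54 in each knockdown against siSCR (adjusted p = 0.0414 in siPRMT1 and 0.0364 in siPRMT8), and the differences from D3 were -0.59 and -0.58 (adjusted p = 0.0228 and 0.0225). Each of these 4 calls was lost when any 1 of 4 or 5 arrays was left out, with adjusted p up to 0.167 against siSCR and 0.0853 against D3.

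Pcdh19, whose human gene underlies an X-linked epilepsy, read 6.61, 6.57 and 6.57 in siPRMT1 cultures and 6.78, 6.69 and 6.53 in siPRMT8 cultures, against 6.69, 7.20 and 7.16 in siSCR and 6.86, 6.78 and 6.91 in D3. The siPRMT1 arrays lay just below the lowest control array, and siPRMT8 overlapped with both controls. It fell by 0.43 in siPRMT1 (SE 0.118, adjusted p = 0.0252) and also in siPRMT8, by 0.35 against siSCR (adjusted p = 0.0495), and lay at -0.27 and -0.18 against D3, where neither passed (adjusted p = 0.116 and 0.279). The 2 calls were lost when any 1 of 3 (siPRMT1) or 5 (siPRMT8) arrays was left out (adjusted p up to 0.108 and 0.184). Pcdh8, induced by neuronal activity, fell by 0.56 in siPRMT1 against D3 (SE 0.129, adjusted p = 0.00864), and did not pass in siPRMT8 against D3 (-0.32, adjusted p = 0.0911) or in either knockdown against siSCR (-0.34 and -0.10).

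Of the 12 tested type II cadherins 3 fell in each knockdown against siSCR, where 11.6% (siPRMT1) and 13.2% (siPRMT8) of all genes fell, and 6 fell in each against D3, where 14.7% and 15.2% did. None of the 12 rose with the probe sets used, and Cdh12 is counted in all of these but siPRMT8 against siSCR. Cdh8, a cadherin of distinct cortical, striatal and spinal neurons, read 7.46, 7.93 and 7.72 in siPRMT1 cultures and 7.47, 7.76 and 7.80 in siPRMT8 cultures, against 8.01, 9.61 and 9.43 in siSCR and 8.60, 8.83 and 8.70 in D3. All knockdown arrays lay below all control arrays, and siSCR replicates 2 and 3 were the highest of the 12. The fall against siSCR was 1.31 in siPRMT1 (SE 0.319, adjusted p = 0.0157) and 1.34 in siPRMT8 (SE 0.319, adjusted p = 0.0121). Both were lost without siSCR replicate 2 or 3 (adjusted p up to 0.0732 and 0.0565), and without siSCR replicate 1 they were larger, at -1.81 and -1.84. Against D3 the difference was -1.01 in siPRMT1 (adjusted p = 0.037) and -1.03 in siPRMT8 (adjusted p = 0.0317), which was lost when any 1 of 5 (siPRMT1) or 6 (siPRMT8) arrays was left out (adjusted p up to 0.103 in both). These fits kept siSCR replicate 1 in the shared estimate of the spread, and the SD of Cdh8 was 0.876 in siSCR and 0.113 in D3.

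Cdh12, a brain cadherin whose mean of 5.51 barely exceeded the brightness limit of 5.43, read 4.86, 4.71 and 5.17 in siPRMT1 cultures and 4.88, 5.23 and 5.17 in siPRMT8 cultures, against 5.03, 6.23 and 6.0 in siSCR and 6.24, 6.36 and 6.20 in D3. It passed the limit through its control arrays, since the knockdown arrays all lay below it, so a difference was built into its selection and its values are given as a description, with no test. The differences from D3 were -1.36 in siPRMT1 and -1.18 in siPRMT8, and those from siSCR were -0.84 and -0.66. siSCR replicate 1 lay within the range of the knockdown arrays.

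Cdh10, a close relative found in developing forebrain, read 7.17, 7.41 and 7.34 in siPRMT1 cultures and 7.39, 7.57 and 7.77 in siPRMT8 cultures, against 7.24, 8.45 and 8.16 in siSCR and 8.26, 8.45 and 8.30 in D3. Only siSCR replicate 1 among the controls lay in the knockdown range. Cdh10 fell by 1.03 in siPRMT1 (SE 0.233, adjusted p = 0.00751) and also in siPRMT8, by 0.76 against D3 (adjusted p = 0.0304, lost when any 1 of 5 arrays was left out with adjusted p up to 0.104). It missed the threshold against siSCR at -0.64 and -0.37 (adjusted p = 0.0775 and 0.274). Without siSCR replicate 1 these differences were -1.0 and -0.73, given as a description and no test.

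Cdh18, another brain cadherin, read 5.89, 5.77 and 5.66 in siPRMT1 cultures and 5.75, 5.87 and 5.49 in siPRMT8 cultures, against 5.90, 6.17 and 6.28 in siSCR and 6.55, 6.23 and 6.47 in D3. The knockdown arrays all lay below the controls, although siSCR replicate 1 was only just above them. It fell by 0.64 in siPRMT1 (SE 0.124, adjusted p = 0.00335) and also in siPRMT8, by 0.71 against D3 (adjusted p = 0.00193), and by 0.41 in siPRMT8 against siSCR (adjusted p = 0.0325, up to 0.137 with 1 array left out). It missed the threshold in siPRMT1 against siSCR, at -0.34 (adjusted p = 0.0794), and siSCR itself lay at -0.30 against D3 (adjusted p = 0.47). The other probe set of Cdh18 gave larger differences, -0.72 and -0.76 against siSCR and -1.14 and -1.18 against D3.

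Cdh7, which helps set hindbrain and spinal cell groups apart, read 5.83, 5.89 and 6.01 in siPRMT1 cultures and 5.89, 6.05 and 6.07 in siPRMT8 cultures, against 5.72, 6.73 and 6.61 in siSCR and 6.57, 6.67 and 6.36 in D3. siSCR replicate 1 was the lowest of all 12 arrays. It fell by 0.63 in siPRMT1 against D3 (SE 0.205, adjusted p = 0.0426), a call lost when any 1 of the 6 arrays was left out (adjusted p = 0.0602 to 0.128). Without siSCR replicate 1 the differences from siSCR were -0.76 in siPRMT1 and -0.67 in siPRMT8. Leaving out the lowest array favoured such falls, so these values are a description and no test. Cdh22, the pituitary and brain cadherin, fell by less but in all 4 comparisons, by 0.28 and 0.25 against siSCR (adjusted p = 0.0254 and 0.0325, up to 0.102 and 0.114 with 1 array left out) and by 0.39 and 0.36 against D3 (adjusted p = 0.0032 and 0.00458).

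Cdh9, which acts in synapse formation of hippocampal mossy fibres, did not pass anywhere with all arrays, and siSCR replicate 1 was 1.18 below the mean of the other siSCR arrays (difference -1.18). Without that array the difference of Cdh9 in siPRMT1 against siSCR was -0.60, given as a description and no test. Cdh11, shared by neural and mesenchymal cells, read 9.52, 9.91 and 9.67 in siPRMT1 cultures and 10.01, 10.07 and 10.09 in siPRMT8 cultures, against 9.76, 10.01 and 9.97 in siSCR and 9.94, 9.96 and 9.98 in D3. The siPRMT1 arrays lay below D3 and the siPRMT8 arrays above D3, by differences that did not pass (-0.26, adjusted p = 0.0631, and 0.09, adjusted p = 0.502). Without siSCR replicate 1, its lowest siSCR array, Cdh11 lay at -0.29 in siPRMT1 against siSCR, given as a description and no test. Cdh6, Cdh20 and Cdh24 did not pass, with differences between -0.41 and 0.40 over the 4 comparisons. The other, dimmer probe set of Cdh24 lay at 0.10 and 0.16 against siSCR in siPRMT1 and siPRMT8. Against D3 it passed as higher, at 0.24 and 0.30 (adjusted p = 0.0485 and 0.0186, limma).

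Cdh5, the VE-cadherin of endothelial junctions, fell by 0.59 in siPRMT8 against D3 (SE 0.136, adjusted p = 0.00802, limma). It did not pass in the other 3 comparisons, where it lay at 0.38 in siPRMT1 against siSCR, -0.03 in siPRMT8 against siSCR and -0.18 in siPRMT1 against D3. The scrambled line lay nearly as far below D3, at -0.56 (adjusted p = 0.181), and its arrays did not overlap with D3. The mean of the endothelial markers was 6.55 to 6.90 in siPRMT1 and 6.60 to 6.74 in siPRMT8, against 6.85 to 6.91 in siSCR and 6.76 to 6.90 in D3. In siPRMT8 against D3 1 of 7 tested endothelial markers fell and 1 rose, where 15.2% of all genes fell and 12.5% rose. The part of endothelial cells in the Cdh5 result was not tested.

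**Figure D3:**
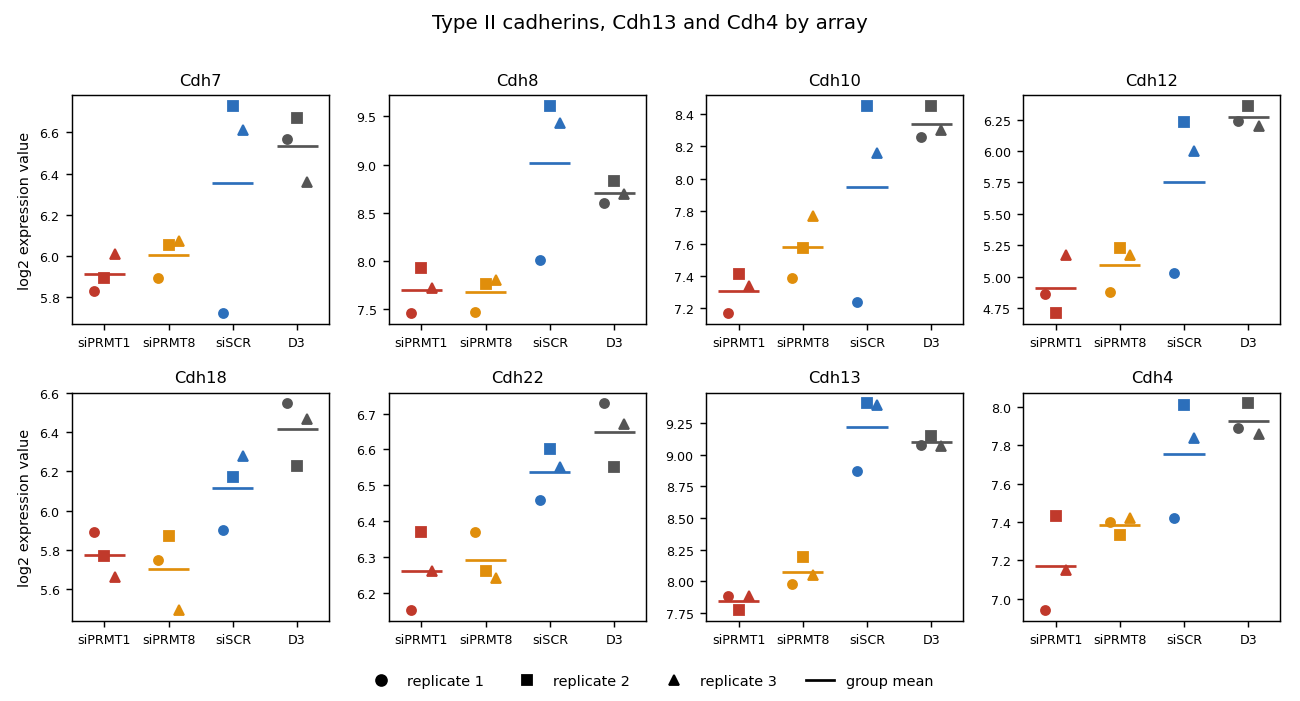
Log2 expression value (vertical axis, its range differs between panels) of 6 type II cadherins, Cdh13 and Cdh4 in the 3 arrays of each group, with symbols for the replicate number and a line at the group mean. In Cdh13 all 3 siSCR arrays lie above all 6 knockdown arrays by a wide margin, whereas in Cdh10 and Cdh12 siSCR replicate 1 lies among the knockdown arrays, and in Cdh7 below them.

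Cdh13 fell in all 4 comparisons with the smallest adjusted p of any member. It encodes T-cadherin, which is anchored to the membrane by a lipid and has no cytoplasmic tail. Its values were 7.88, 7.77 and 7.88 in siPRMT1 and 7.98, 8.19 and 8.05 in siPRMT8, against 8.87, 9.41 and 9.39 in siSCR and 9.08, 9.15 and 9.07 in D3. Each control array, siSCR replicate 1 included, lay above each knockdown array. It fell by 1.38 in siPRMT1 (SE 0.121, adjusted p = 0.000133) and also in siPRMT8, by 1.15 against siSCR (SE 0.121, adjusted p = 0.000425). The falls against D3 were 1.26 (log2 -1.26, adjusted p = 0.000194) and 1.03 (log2 -1.03, adjusted p = 0.000468). No alternative that was run ended any of the 4 calls. Astrocyte markers had a like pattern over arrays, with a mean of 7.31 to 7.65 in siPRMT1 and 7.37 to 7.80 in siPRMT8. The mean was 8.21 in siSCR replicate 1, at most 8.67 in the other siSCR arrays and 8.42 to 8.44 in D3. Of 7 tested markers 6 fell and 1 rose in each of the 4 comparisons, where 11.6% to 15.2% of all genes fell and 7.18% to 12.5% rose. The part of astrocytes in the Cdh13 result was not tested.

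Among type I cadherins Cdh4 fell in 3 comparisons and Cdh3 in 1, and Cdh1, Cdh2 and Cdh15 did not pass. Cdh4, the R-cadherin of retina and brain, read 6.94, 7.43 and 7.15 in siPRMT1 cultures and 7.40, 7.33 and 7.42 in siPRMT8 cultures, against 7.42, 8.01 and 7.84 in siSCR and 7.89, 8.02 and 7.86 in D3. Apart from siSCR replicate 1, the controls lay above all knockdown arrays. Its fall was 0.59 in siPRMT1 against siSCR (log2 -0.59, SE 0.145, adjusted p = 0.0169, up to 0.0754 with 1 array left out). The difference in siPRMT8 against siSCR was -0.38 (adjusted p = 0.0818). Without siSCR replicate 1 it was -0.55, given as a description and no test. Relative to D3 the falls were 0.75 for siPRMT1 (log2 -0.75, adjusted p = 0.00316) and 0.54 for siPRMT8 (log2 -0.54, adjusted p = 0.0165, lost without siPRMT8 replicate 2 or D3 replicate 2, with adjusted p up to 0.0614).

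Cdh1 and Cdh3, E-cadherin and P-cadherin, lie side by side on chromosome 8 with 0 protein-coding genes between them and are expressed in epithelia, and Cdh1 also in undifferentiated stem cells. Cdh1 read 9.81, 9.23 and 9.65 in siPRMT1 cultures and 9.48, 9.45 and 9.43 in siPRMT8 cultures, against 9.86, 9.29 and 9.24 in siSCR and 9.31, 9.17 and 9.22 in D3. Cdh3 read 8.27, 6.88 and 7.96 in siPRMT1 cultures and 7.10, 7.39 and 6.91 in siPRMT8 cultures, against 8.36, 8.03 and 7.93 in siSCR and 7.91, 7.59 and 7.79 in D3. In both genes siSCR replicate 1 was the highest array of the series, and siPRMT1 replicate 2 was far below the other siPRMT1 arrays. Cdh3 fell by 0.97 in siPRMT8 against siSCR (SE 0.279, adjusted p = 0.0267), a call lost without siSCR replicate 1 (-0.85, adjusted p = 0.0661) or any 1 of 4 other arrays, and it did not pass against D3 (-0.63, adjusted p = 0.116). Cdh1 lay at 0.10 in siPRMT1 and -0.01 in siPRMT8 against siSCR, and at 0.33 and 0.22 against D3 (adjusted p = 0.152 and 0.344).

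Cdh2, the N-cadherin of neural progenitors and neurons, read 9.41, 10.24 and 9.68 in siPRMT1 cultures and 10.04, 9.99 and 10.07 in siPRMT8 cultures, against 9.64, 10.05 and 9.98 in siSCR and 10.24, 10.31 and 10.18 in D3. The arrays that were high in Cdh1, siPRMT1 replicates 1 and 3 and siSCR replicate 1, were the 3 lowest in Cdh2. It did not pass in any comparison, with -0.12 and 0.14 against siSCR and -0.47 (adjusted p = 0.0606) and -0.21 against D3. With neither siSCR replicate 1 nor siPRMT1 replicate 2 in the fit, Cdh1 lay at 0.46 and Cdh2 at -0.47 in siPRMT1 against siSCR. These arrays were the extremes of their groups in both genes, so leaving them out favoured such differences. The values are therefore given as a description, with no test. Epithelial markers had a mean of 8.59, 7.93 and 8.46 in siPRMT1 and 8.19 to 8.34 in siPRMT8, against 8.68, 8.21 and 8.23 in siSCR and 8.18 to 8.35 in D3. Pluripotency markers had 10.61, 9.57 and 10.37 in siPRMT1 and 9.95 to 10.28 in siPRMT8, against 10.51 in siSCR replicate 1, at least 10.26 in the other siSCR arrays and 10.02 to 10.15 in D3. The part of such cells in the values of Cdh1, Cdh2 and Cdh3 was not tested.

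**Figure D4:**
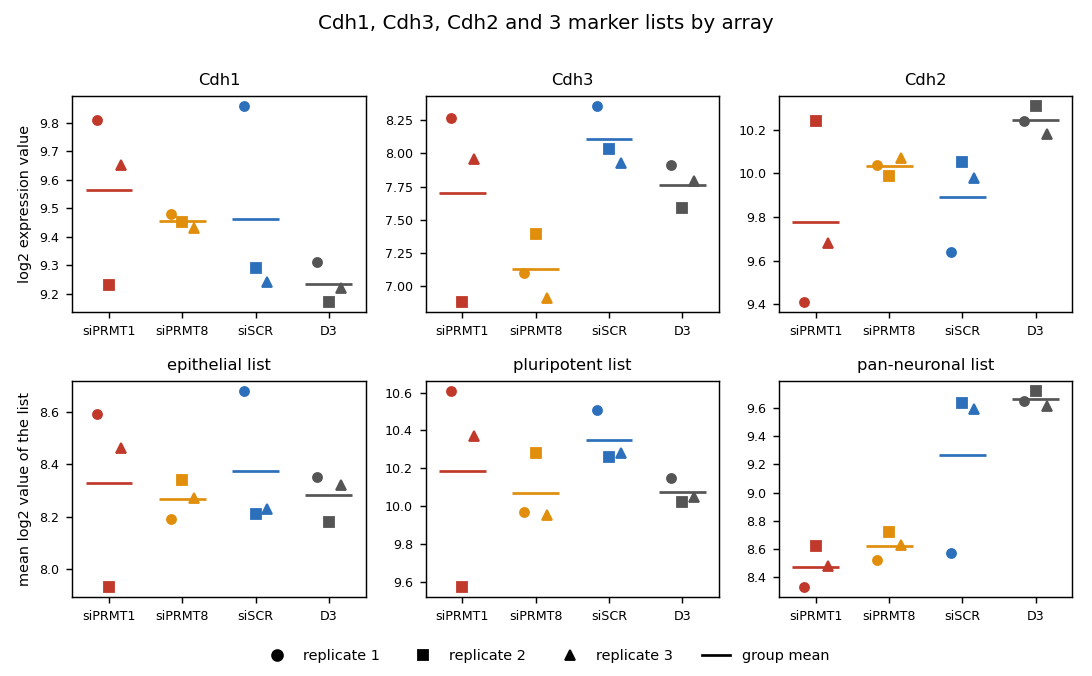
Log2 expression value of Cdh1, Cdh3 and Cdh2 (top row) and the mean log2 value of the epithelial, pluripotent and pan-neuronal marker lists (bottom row) in the 3 arrays of each group, with symbols for the replicate number and a line at the group mean. siSCR replicate 1 is the highest array in Cdh1, Cdh3 and the epithelial list, and siPRMT1 replicate 2 is the lowest in the epithelial and pluripotent lists.

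The remaining members belong to other tissues. Cdh15 of muscle, Cdh16 of kidney, Cdh23 of the hair cell tip link and Pcdh12 of endothelium did not pass in any comparison, and their differences over the 4 comparisons lay between -0.04 and 0.31. Pcdh15, the partner of Cdh23 in the tip link, gave different results by probe set. The brighter set, used here, lay at 0.14 and -0.04 against siSCR and at 0.10 and -0.08 against D3 in siPRMT1 and siPRMT8, and passed nowhere. The other set lay at -0.82 and -0.95 against siSCR (adjusted p = 0.0221 and 0.00995) and at -1.0 and -1.12 against D3 (adjusted p = 0.00602 and 0.00316), so no direction can be given for Pcdh15. None of 4 tested hair cell markers passed in these comparisons. Cdh17, Cdh19, Cdh26, Pcdh1 and Pcdh20 were below the brightness limit and were not tested. Of these Cdh19, a Schwann cell precursor cadherin, read 3.53, 3.66 and 3.79 in siPRMT1 cultures and 3.38, 3.33 and 2.98 in siPRMT8 cultures, against 3.20, 3.17 and 3.10 in siSCR and 3.24, 3.24 and 3.01 in D3. It passed as higher in siPRMT1 when no brightness limit was set. Its mean of 3.3 lay far below the limit of 5.43, at percentile 3.8 of all genes, so no result is drawn from that call.

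Several members are neighbours in the mouse genome (RefSeq annotation, GRCm38.p6), and their differences from D3 are listed here by position. On chromosome 15 Cdh6, Cdh9, Cdh10, Cdh12 and Cdh18 follow each other with 0 protein-coding genes between them. Against D3 the differences in siPRMT1 along this row were -0.41, -0.46, -1.03, -1.36 and -0.64, and in siPRMT8 -0.18, -0.31, -0.76, -1.18 and -0.71, and Cdh10 and Cdh18 passed in both, with Cdh12 given as a description. On chromosome 8 Cdh8, Cdh11 and Cdh5 follow each other likewise, with -1.01, -0.26 and -0.18 in siPRMT1 and -1.03, 0.09 and -0.59 in siPRMT8. On chromosome 14 Pcdh8, Pcdh17, Pcdh20 and Pcdh9 lie in this order with 1, 2 and 0 genes between, and the tested 3 gave -0.56, -0.59 and -1.27 in siPRMT1 and -0.32, -0.58 and -1.15 in siPRMT8. The pair Pcdh10 and Pcdh18 gave -1.38 and -0.18 in siPRMT1 and -1.31 and 0.15 in siPRMT8. The differences between neighbours were not tested.

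**Figure D5:**
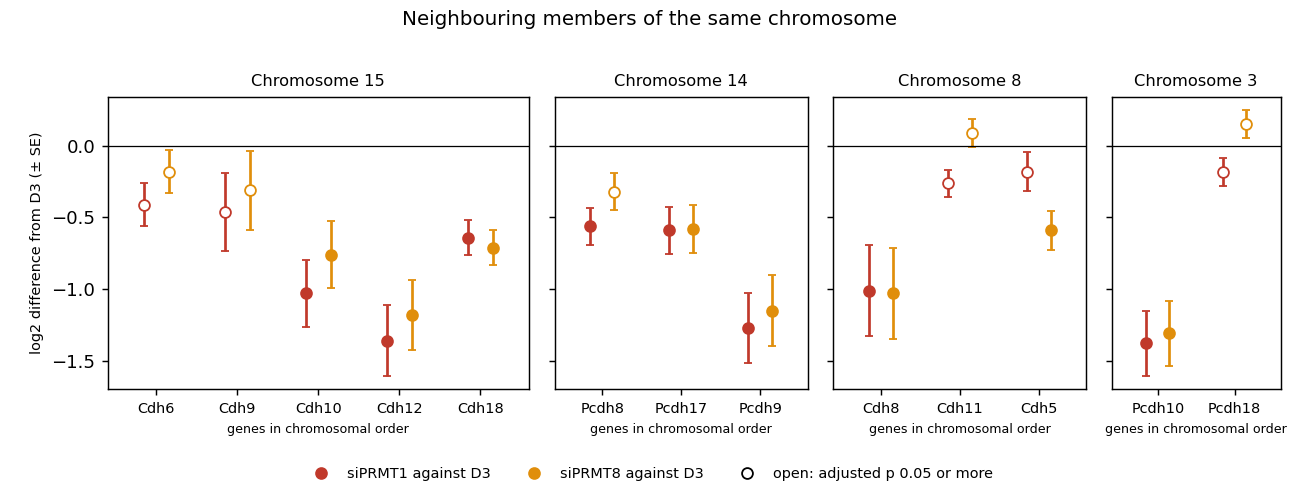
Log2 difference from D3 (vertical axis, with bars of 1 SE) of neighbouring members in chromosomal order, for siPRMT1 and siPRMT8. Filled circles had an adjusted p under 0.05 and open circles did not, with Cdh12 to be read without its test. Cdh8 lies below Cdh11 in both knockdowns, its bar meets that of Cdh5 in siPRMT8, and Pcdh10 lies below Pcdh18.

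The other genes of cadherin adhesion are set beside the shares of all tested genes that fell, 11.6% in siPRMT1 and 13.2% in siPRMT8 against siSCR, and 14.7% and 15.2% against D3. Of 9 tested genes of catenins and their relatives, 2 fell in siPRMT1 against siSCR, 0 in siPRMT8 against siSCR and 3 in each knockdown against D3, and 0 rose. Those that fell were the neuronal forms Ctnnd2 (delta-catenin) and Ctnna2 (alpha N-catenin), and Arvcf of the p120 family. Ctnnd2 read 8.08, 8.44 and 8.23 in siPRMT1 cultures and 8.64, 8.61 and 8.61 in siPRMT8 cultures, against 8.61, 9.27 and 9.21 in siSCR and 9.18, 9.30 and 9.25 in D3. It fell by 0.78 in siPRMT1 against siSCR (adjusted p = 0.00502) and by 0.99 and 0.63 in siPRMT1 and siPRMT8 against D3, and lay at -0.42 in siPRMT8 against siSCR (adjusted p = 0.0608). Arvcf fell by 0.25 in siPRMT1 against siSCR (adjusted p = 0.0246), and Ctnna2 fell by 1.01 and 0.71 in siPRMT1 and siPRMT8 against D3. Ctnnb1, beta-catenin, read 11.26, 11.38 and 11.30 in siPRMT1 cultures and 11.44, 11.35 and 11.41 in siPRMT8 cultures, against 11.32, 11.26 and 11.21 in siSCR and 11.26, 11.24 and 11.23 in D3, and did not pass. Nor did Ctnna1, Ctnnd1, Jup, Ctnnal1 and Pkp4, and Ctnna3 was too dim to test. The median difference of the 9 was -0.04 in siPRMT1 and -0.17 in siPRMT8 against siSCR.

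Atypical cadherins, which carry cadherin repeats but bind other partners, were also examined. Of 15 tested, 7 fell in siPRMT1 (11.6% of all genes) and 4 in siPRMT8 against siSCR (13.2%), 8 fell in each against D3 (14.7% and 15.2%), and 0 rose. The calsyntenins of synapses were among them: Clstn2 was -0.77 in siPRMT1 (adjusted p = 0.0264) and -0.81 in siPRMT8 against siSCR (adjusted p = 0.0173), and Clstn3 was -0.67 and -0.68 (adjusted p = 0.00858 and 0.00664). Clstn2 read 6.28 in siSCR replicate 1, against 7.31 and 7.30 in the other siSCR arrays. Of 8 WAVE complex genes 2 fell in each knockdown against siSCR and 3 in each against D3, beside the same shares of all genes, and 0 rose. The median difference of these 8 was -0.08 in siPRMT1 and -0.14 in siPRMT8 against siSCR. Cyfip2 was -0.56 and -0.60 against siSCR (adjusted p = 0.00321 and 0.00188) and Wasf1 was -0.40 and -0.39 (adjusted p = 0.00858 and 0.00726), both neuronal members of the complex. Of 8 junction partners 2 fell in each knockdown against siSCR and 3 in each against D3, and 0 rose, with Nectin1 at -0.66 in siPRMT1 (adjusted p = 0.00376) and -0.42 in siPRMT8 against siSCR (adjusted p = 0.0247).

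Of 8 genes whose products cut cadherins, 1 fell in siPRMT1 (11.6% of all genes) and 2 in siPRMT8 against siSCR (13.2%), 2 fell in each against D3 (14.7% and 15.2%), and 1 rose, in siPRMT1 against D3 (11.7% of all genes). The gamma-secretase subunit Aph1b was -0.35 and -0.40 against siSCR (adjusted p = 0.0357 and 0.0176), and Adam10, the sheddase of N-cadherin and E-cadherin, was -0.14 in siPRMT1 (adjusted p = 0.11) and -0.24 in siPRMT8 (adjusted p = 0.0139). Among 6 repressors of E-cadherin 2 rose in siPRMT1 (7.18% of all genes) and 1 in siPRMT8 against siSCR (10.7%) and 0 fell, while against D3 1 rose and 1 fell in siPRMT1 and 1 fell in siPRMT8. Twist2 was 0.31 in both knockdowns against siSCR (adjusted p = 0.0426 in siPRMT1 and 0.0339 in siPRMT8). Snai1 rose by 0.28 in siPRMT1 against siSCR (adjusted p = 0.0278) and fell by 0.27 in siPRMT8 against D3 (log2 -0.27, adjusted p = 0.0254), and the direct difference of siPRMT1 from siPRMT8 was 0.43 (adjusted p = 0.0693).

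The knockdowns were also set against each other. In siPRMT1 against siPRMT8 0 of the 30 passed in limma, where 0.154% of all genes did, and 3 members (12.2% of all genes) had an unadjusted p under 0.05. These were Cdh11 (-0.35, 95% interval -0.56 to -0.15, adjusted p = 0.193), Pcdh18 (-0.33, -0.54 to -0.11, adjusted p = 0.226) and Cdh5 (0.40, 0.11 to 0.70, adjusted p = 0.277). Arrays of the 2 knockdowns did not overlap in 5 members, against 15.8% of all genes. Without siPRMT1 replicate 2, 5 members passed, where 5.76% of all genes did. Cdh3 was 0.98 higher in siPRMT1 (adjusted p = 0.0132), and Cdh2 (-0.49, 0.0359), Cdh11 (-0.46, 0.014), Cdh20 (-0.60, 0.0262) and Pcdh8 (-0.40, 0.0483) were lower there, with adjusted p in second place. That array was singled out because it stood apart from its group in Cdh1, Cdh2, Cdh3 and Cdh20. Leaving it out therefore favoured calls in these same genes, and their results here are a description and no test.

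The scrambled line was compared with unmodified D3 cells as a check of the controls. In siSCR against D3 0 of the 30 members passed in limma, where 0.154% of all genes did, and 3 (9.56% of all genes) had an unadjusted p under 0.05. These were Cdh5 (-0.56, 95% interval -0.85 to -0.26, adjusted p = 0.181), Pcdh18 (-0.45, -0.66 to -0.23, adjusted p = 0.124) and Cdh18 (-0.30, -0.57 to -0.03, adjusted p = 0.47). The groups did not overlap in 6 members, against 20.3% of all genes. Leaving out any 1 of the 6 siSCR and D3 arrays gave 0 calls again. With neither siSCR replicate 1 nor siPRMT1 replicate 2 in the fit Cdh8 was 0.81 higher (adjusted p = 0.00719) and Pcdh11x 0.50 higher in siSCR (adjusted p = 0.0438). In both genes siSCR replicate 1 was the lowest siSCR array, so leaving it out raised the siSCR mean.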

How the data were processed

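RNA of 12 cultures was labelled from 300 ng as biotinylated single-stranded cDNA and hybridised to 1-colour whole-transcript arrays, per the labels. The table that the authors deposited held log2 values of 35556 probe sets. That they are log2 was inferred from their range, 0.97 to 13.54. How the authors corrected the background and normalised is not given in the sources used here. Medians of the arrays lay within 0.023 of each other, and they were used as deposited. Array number limits the precision, and no detection call was used here.

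Of the probe sets 21789 had 1 symbol in the platform annotation, 1621 several and 12146 none, and the last 2 kinds were left out, including 3 that name a member among others. Symbols were updated through RefSeq (GRCm38.p6), where 21698 matched. The 35 members had 39 probe sets, and the brightest was used. Genes in the lowest 25% by mean (limit 5.43) were left out. Tests used limma 3.58.1 (R 4.3.3), 1 model with 4 group means, Benjamini-Hochberg over 14953 genes and a threshold of 0.05, and were checked on simulated data.

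Members, classes and lists were chosen with earlier results of these data known. Full array values are given for members that passed with a log2 difference of 0.6 or more and for Cdh1, Cdh2, Cdh4, Cdh11, Pcdh9, Pcdh10 and Pcdh19 (Pcdh17, Cdh19 and Ctnnb1 were added after their values were seen). Other genes named are all catenins and at most 2 higher and 2 lower genes of each list. Replicate numbers occur in all groups. Deviations of same-numbered siSCR and D3 arrays correlated at 0.161, 0.194 and 0.107, and over all groups 8 of 18 same-numbered pairs exceeded 0.1. Alternatives were other normalisations, filters, probe sets, variance models, a replicate block, 2-group fits, a 1.2-fold limit (treat) and leaving out arrays.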

Additional observations from a re-analysis of the deposited data

How the results depend on the processing

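Counts of changed members are given as siPRMT1 against siSCR, siPRMT8 against siSCR, siPRMT1 against D3, siPRMT8 against D3, siPRMT1 against siPRMT8 and siSCR against D3, with all arrays 11, 10, 14, 13, 0 and 0. With array weights the counts were 19, 17 and, for siPRMT1 against siPRMT8 and siSCR against D3, 6 and 2, but the estimation of the weights stopped before it converged. Over all genes these 4 counts were 5528, 5694, 1046 and 279. With limma's treat at 1.2-fold the first 4 member counts were 1, 1, 4 and 5, beside 383, 382, 828 and 745 of all genes. A fit of only the 2 groups gave 1 member for siPRMT1 against siSCR (357 of all genes). Leaving out the lowest 50% of genes gave 9 members for siPRMT1 against D3 (3285 of all genes), where 15 members were tested. With neither siSCR replicate 1 nor siPRMT1 replicate 2 in the fit the member counts were 20, 19, 20, 19, 9 and 2. Over all genes they were 5077, 5710, 5649, 6121, 1901 and 152, so the calls rose among all genes too. The member count of siPRMT8 against D3 moved although neither array belongs to it, since all groups share 1 estimate of the spread. Leaving out 1 array at a time gave 2 to 16, 2 to 15, 10 to 18, 7 to 9, 0 to 5 (5 without siPRMT1 replicate 2) and 0 to 0. Over all genes the ranges were 1317 to 3763, 1804 to 4107, 2643 to 4639, 2736 to 3357, 2 to 862 and 2 to 21. Quantile normalisation, median centring, no filter, other probe sets and a trended robust variance kept every count within 1.5 times. In that same order the fit with a replicate block gave 13, 9, 17, 13, 0 and 0, with 7 of the 10 calls in siPRMT8 against siSCR kept. Over all genes it gave 2506, 3282, 3608, 3807, 14 and 15. Under the block Cdh10 and Pcdh18 passed in siPRMT1 against siSCR (adjusted p = 0.0382 and 0.0268), Cdh4 and Pcdh9 in siPRMT8 against siSCR (0.0467 and 0.0382), and Cdh2, Cdh6 and Cdh11 in siPRMT1 against D3 (0.0417, 0.0287 and 0.0394), whereas Cdh18, Cdh22 and Pcdh19 did not pass in siPRMT8 against siSCR (0.0544, 0.0568 and 0.073). Replicate numbers met the criterion for pairing only between siSCR and D3, where the block changed no call.

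Some differences changed sign. Pcdh15 became -0.82 in siPRMT1 against siSCR and -1.0 against D3 with its most variable probe set, and -0.45 against D3 with the mean of its probe sets. Without both of these arrays Cdh1 became 0.19 in siPRMT8 against siSCR and Pcdh11x 0.50 in siSCR against D3. The cause of these changes was not tested.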
